A study of Danio rerio with 14 samples.

Results

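The 6 genes described here were grouped under the label of Müller glia reactivity and reprogramming. *gfap* and *vim* encode intermediate filament proteins, *ascl1a* and *sox2* encode transcription factors, and *mmp9* and *mmp13a* encode secreted matrix metalloproteinases. They were chosen by Ensembl identifier, and all 6 were found among the 19859 genes of the table and passed the filter for testing. RNAseq was performed on dissected retinas, RPE included, of *chmru848* zebrafish, which carry the ru848 mutation of *chm*, and of wild-type AB (wt) zebrafish, with 7 samples per genotype at 5 days post fertilisation (dpf) and no treatment in either group. *chm* encodes rab escort protein 1, which is needed for the lipid modification of Rab proteins, and it is mutated in the whole larva, so that the retina degenerates in an animal that is itself failing at about this age. Each group is described as 7 zebrafish, and whether both eyes of a fish were joined is not given in the sources used here.

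Müller glia are the main glial cells of the retina. They span its whole thickness, recycle neurotransmitter and visual pigment, and become reactive when neurons die, with more GFAP filament as the usual sign. In the adult zebrafish, reactive Müller glia can go further. Cytokine signalling through Jak and Stat3, together with *ascl1a*, *lin28a* and *sox2*, reprograms them to divide and to give rise to new neurons, and proteases released after injury remodel the surrounding matrix.

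The deposited values are on a variance-stabilized log2 scale on which 4.35 stands for a count of 0. They were also turned back into normalized counts. A difference is the *chmru848* mean minus the wt mean on the deposited log2 scale, on which changes of weakly expressed genes are compressed. It was tested with limma over 19751 genes with Benjamini-Hochberg adjustment. Estimated depth was 14.2 M to 29.2 M reads on genes in *chmru848* and 18.0 M to 26.4 M in wt retinas (M, mega). The transcript of the mutated gene, *chm* (ENSDARG00000003845), overlapped between groups, with 216 to 492 normalized counts in *chmru848* and 264.5 to 432 in wt retinas, so that its level could not serve as a check of the labels. Since no gene length was at hand, levels were not compared between genes.

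One wt retina stood apart for these genes. Among the 7 wt retinas, wt replicate 6 had the highest *gfap*, *mmp9* and *mmp13a* and the lowest *vim* and *ascl1a*, which makes it the extreme wt retina for 5 of the 6 genes. Over all tested genes it was the highest wt retina in 22.3% and the lowest in 22.6%, together 44.9%, against 14.1% to 38.5% for each other wt retina. Its correlation with the mean of the other wt retinas was also the lowest of the group (r = 0.940, against 0.951 to 0.984), so it stood apart beyond these genes. It was also the lowest wt retina for 5 of 6 Müller glia markers, *vim* among them and *gfap* the exception, for 6 of 8 photoreceptor markers, for all 3 RPE and pigment markers and for all 4 proliferation genes, and the highest for 9 of 14 Jak-Stat genes. Of the 3 intermediate filament genes it was the highest wt retina for 2 and the lowest for 1. Among 10 regulators of reprogramming it was highest for 2 and lowest for 4 (40.0%). For the 4 astrocyte and optic nerve markers these counts were 2 and 1. Some other lists lay nearer to the share of all tested genes. It was the highest wt retina for 2 of 9 injury cytokine and NF-κB genes (22.2%) and for 4 of 12 proteolysis genes (33.3%). It was neither highest nor lowest for any of the 4 microglia and macrophage markers or the 1 neutrophil marker. For each of the 6 genes and for some of the lists, a value without this retina is given below.

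**Figure D1:**
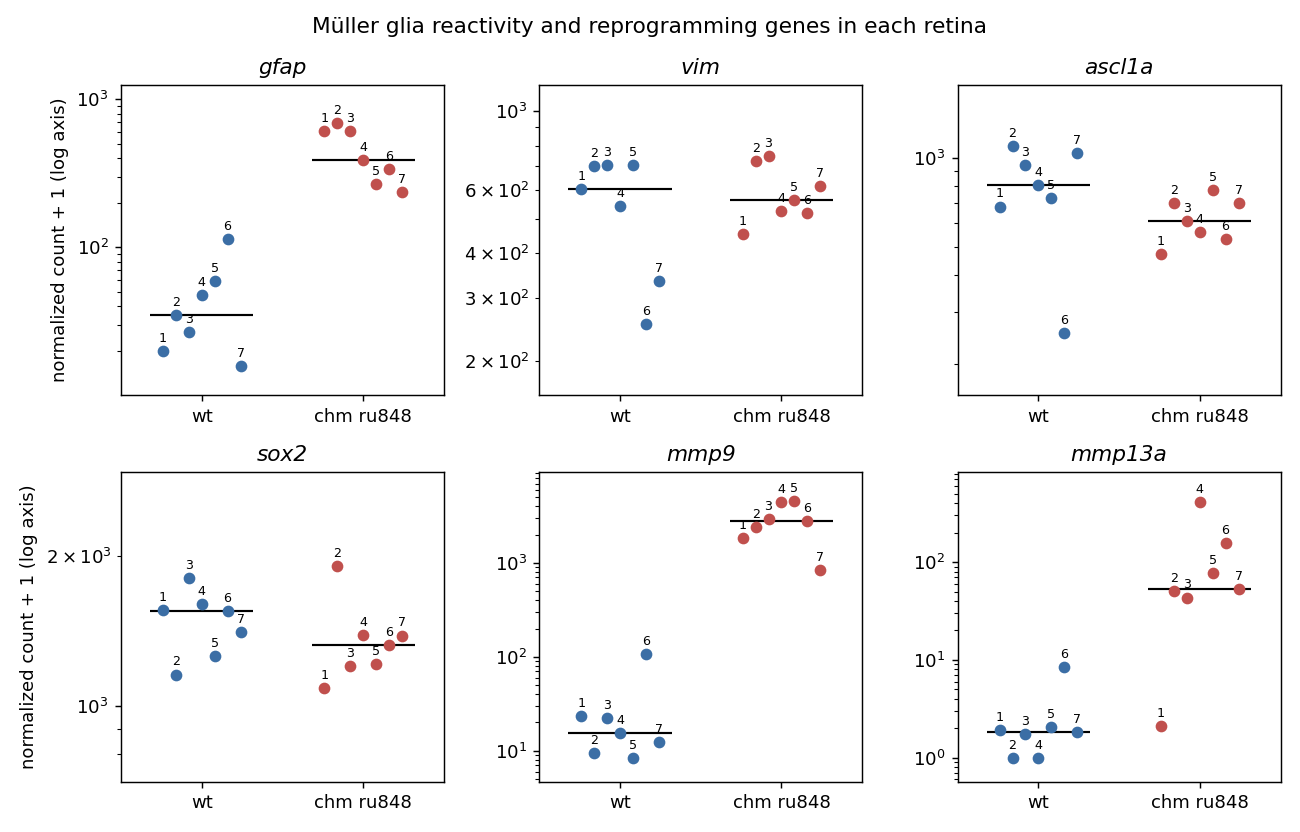
Normalized count plus 1 (log axis, different range in each panel) of the 6 genes in each wt (blue) and *chmru848* (red) retina, with the replicate number above each point and a bar at the group median. The groups separate for *gfap* and *mmp9*, nearly separate for *mmp13a* apart from *chmru848* replicate 1 and wt replicate 6, and overlap for *vim*, *ascl1a* and *sox2*.

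Of the 6 genes, 3 were higher in *chmru848* retinas at an adjusted p threshold of 0.05 in limma, *mmp9*, *mmp13a* and *gfap*, where 19.9% of all tested genes were called higher. None was called lower (0 of 6 in limma, also 0 at an unadjusted p under 0.05 and 0 by the exact permutation test), where 23.7% of all tested genes were. *vim*, *ascl1a* and *sox2* were not called, and 43.7% of all tested genes were called in either direction. In 2 of the 6, *gfap* and *mmp9*, every *chmru848* retina lay above every wt retina, as in 7.57% of all tested genes, and in none did every *chmru848* retina lie below every wt retina, as in 7.98% (15.6% in either direction).

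The filament gene *gfap* (ENSDARG00000025301), the classical marker of reactive Müller glia, was low in wt retinas and was raised in every *chmru848* retina. It had 14.7 to 112 normalized counts in wt retinas (median 33.8) and 235 to 690.3 in *chmru848* retinas (median 389). The *chmru848* retinas formed a wide range, with replicates 1, 2 and 3 at 606 normalized counts or above and replicates 5, 6 and 7 at 338 or below, and the highest wt retina, replicate 6, still lay below all of them. The mean was 448 ± 185 against 44.3 ± 33.6 normalized counts (SD, n = 7 each), a ratio of 10.1, or 13.6 without wt replicate 6. On the log2 scale *gfap* rose by 2.64 (SE 0.29, adjusted p = 1.36e-06, limma), the 173rd largest rise of 19751 genes. The exact two-sided permutation test of *gfap* alone gave p = 0.000583, the smallest that 7 retinas against 7 allow. In bulk retinas a difference in the number of cells of a type and a difference in RNA per cell cannot be told apart, and photoreceptor markers were lower in the same *chmru848* retinas, from a summed level of 305400 to 2655000 normalized counts in wt to 75730 to 542700 in *chmru848* retinas. The part of this in the rise of *gfap* was not tested.

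The second filament gene, *vim* (ENSDARG00000010008), which encodes vimentin, did not follow *gfap*. It had 253 to 705 normalized counts in wt retinas (median 604) and 450.3 to 746 in *chmru848* retinas (median 564). The groups lay within the same range, and 3 of 7 *chmru848* retinas were above the wt median. Its difference was 0.16 on the log2 scale (SE 0.22, 95% interval −0.30 to 0.63, adjusted p = 0.582, limma), an interval that lay below that of *gfap* (2.04 to 3.24). Without wt replicate 6, the lowest wt retina for *vim*, the difference was 0.01 (adjusted p = 0.983). The annotation gives the symbol VIM to a further identifier, ENSDARG00000044501, which was weakly expressed with 21.8 ± 11.3 normalized counts in wt and 7.51 ± 9.47 in *chmru848* retinas (difference −0.75, SE 0.27, adjusted p = 0.0301, limma). Reads shared by near copies of a gene are apportioned by estimation in RSEM, so their split is uncertain.

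Because both filament genes were measured in the same libraries, their ratio within a retina does not depend on how the libraries were scaled. The ratio of *gfap* to *vim* was 0.0314 to 0.443 in wt retinas (median 0.0483) and 0.382 to 1.36 in *chmru848* retinas (median 0.743). Only the highest wt value, in replicate 6, reached into the *chmru848* range. The log2 ratio was tested with 1 added to each normalized count, so that the tested ratio was not wholly free of the scaling. It was higher by 3.31 in *chmru848* retinas (exact two-sided permutation p = 0.00117, n = 7 each). The intermediate filament gene *nes*, which encodes nestin and marks neural progenitors, also rose, from 10.2 ± 5.34 to 321 ± 269.5 normalized counts (difference 2.90, SE 0.33, adjusted p = 2.36e-06, limma), with no overlap between groups. It was in a gene list that the study made on these retinas.

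**Figure D2:**
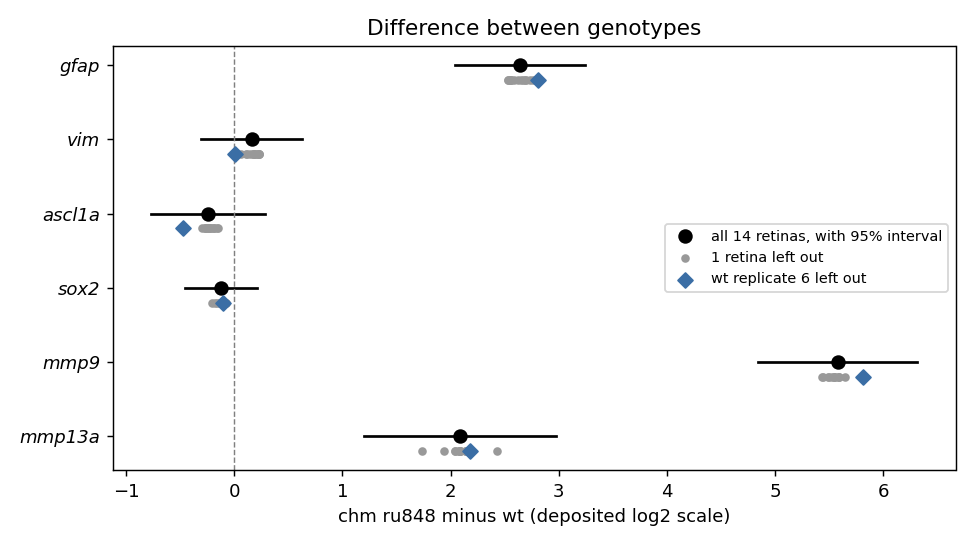
Difference between genotypes of the 6 genes on the deposited log2 scale (black points, bars are 95% intervals from limma), with the 14 values after leaving out 1 retina each (grey) and the value without wt replicate 6 (blue diamonds). The intervals of *mmp9*, *gfap* and *mmp13a* lie above 0, those of *vim*, *ascl1a* and *sox2* span 0, and leaving out wt replicate 6 moves *ascl1a* from −0.24 to −0.48.

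The proneural factor *ascl1a* (ENSDARG00000038386), which Müller glia of the adult zebrafish need to enter regeneration, was not higher in *chmru848* retinas. It had 253 to 1090 normalized counts in wt retinas (median 807) and 469 to 777 in *chmru848* retinas (median 611.5). All 7 *chmru848* retinas lay below the wt median, and 6 of the wt retinas lay at 682 normalized counts or above, while wt replicate 6 had 253, the lowest of all 14. With all retinas the difference was −0.24 (SE 0.25, 95% interval −0.77 to 0.28, adjusted p = 0.449, limma). Without wt replicate 6 it was −0.48 (SE 0.17, adjusted p = 0.0338), which passed the threshold. That call rests on leaving out 1 retina, and adjusted p ranged from 0.0338 to 0.759 over 25 alternatives in limma. In whole retinas the cells that held *ascl1a* were not told apart, so its level does not show whether Müller glia changed.

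*sox2* (ENSDARG00000070913), a stem cell factor that Müller glia also express at rest, overlapped between the genotypes. It had 1155 to 1802 normalized counts in wt retinas (median 1549) and 1087 to 1909 in *chmru848* retinas (median 1321), and the coefficient of variation of its normalized counts was 14.9% in wt and 19.6% in *chmru848* retinas. The lowest and the highest value were both from *chmru848* retinas, and 6 of 7 *chmru848* retinas lay below the wt median. Its difference was −0.12 (SE 0.16, 95% interval −0.46 to 0.21, adjusted p = 0.556, limma), which does not show that the levels were equal. Without wt replicate 6 the difference was −0.11 (adjusted p = 0.629, limma). In RefSeq genes of the assembly GRCz12tu the long non-coding RNA gene *sox2ot* overlaps *sox2*. Strand-specific counting is not given in the sources used here, so reads from the pair may not be told apart.

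The gelatinase gene *mmp9* (ENSDARG00000042816), which is released by reactive Müller glia and also by neutrophils and macrophages, had the largest change of the 6 genes. It had 7.35 to 105 normalized counts in wt retinas (median 14.4) and 836 to 4550.0 in *chmru848* retinas (median 2785). The groups lay far apart: *chmru848* replicate 7, the lowest of its group, was still above wt replicate 6, and the other wt retinas had at most 22.6. The mean was 2821 ± 1331 against 27.3 ± 34.95 normalized counts (SD, n = 7 each), a ratio of 103, or 198 without wt replicate 6. On the log2 scale it rose by 5.58 (SE 0.35, adjusted p = 1.71e-09, limma), the 14th largest rise of 19751 genes, with an exact permutation p of 0.000583. The 1 neutrophil marker at hand, *lyz*, which encodes lysozyme, rose in the same retinas, from 2.09 to 22.9 normalized counts in wt to 62.3 to 464 in *chmru848* (difference 2.74, SE 0.33, adjusted p = 3.99e-06, limma), without overlap. Its part in the rise of *mmp9* was not tested. In GRCz12tu 4 other genes overlap *mmp9*. The only one of them matched to an identifier here, *dclre1b*, went the other way (difference −0.73, SE 0.18, adjusted p = 0.00348).

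The collagenase gene *mmp13a* (ENSDARG00000012395) was all but silent in wt retinas. It was at 0 in 2 wt retinas, at about 1 estimated read in 4 more and at 8.98 estimated reads in wt replicate 6. With 3 reads as the floor for a gene to count as seen, it was seen only in wt replicate 6. In *chmru848* retinas it had 1.13 to 414 normalized counts (median 51.8), from 36.9 to 286 estimated reads in 6 retinas and 0.994 in replicate 1. *chmru848* replicate 1, which also had the most genes at the lowest value (1983, against 369 to 1475 in the other *chmru848* retinas), thus lay at the wt level for *mmp13a* although its *mmp9* was at 1850.0 normalized counts. The difference of *mmp13a* was 2.09 (SE 0.42, adjusted p = 0.000698, limma; exact permutation p = 0.00117), and 1.74 to 2.43 with 1 retina left out. The difference was 2.18 without wt replicate 6 (adjusted p = 0.000843, limma). Since most wt values were at or under the floor, no ratio of the means is given. Its paralog *mmp13b* rose as well, from 10.4 ± 11.4 to 75.7 ± 64.4 normalized counts (difference 1.44, SE 0.33, adjusted p = 0.00185, limma).

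The spread within a genotype also differed between the genes. Among *chmru848* retinas the coefficient of variation was 17.7% for *ascl1a*, 18.5% for *vim*, 41.3% for *gfap*, 47.2% for *mmp9* and 125% for *mmp13a*. The retina with the highest *gfap* had the highest value of neither protease gene. *chmru848* replicate 2 had the highest *gfap*, replicate 5 the highest *mmp9* and replicate 4 the highest *mmp13a*. Replicate 1 was the lowest of the *chmru848* retinas for *vim*, *ascl1a*, *sox2* and *mmp13a*. Replicate 7 was the lowest for both *gfap* and *mmp9*. Over the 15 pairs of genes in each genotype, 30 correlations in all, 4 had an exact permutation p under 0.05 before adjustment, all in wt retinas, and 0 after it. The strongest was between *ascl1a* and *mmp9* in wt retinas (Pearson's r = −0.91, exact permutation p = 0.0365, adjusted 0.342; Spearman's rho = −0.61, exact permutation p = 0.167, adjusted 0.981; n = 7). It fell to r = −0.05 without the 2 retinas farthest from the *ascl1a* median. Leaving out retinas by their *ascl1a* narrows its range and leaves fewer retinas, which can by itself weaken r. No conclusion is drawn from the fall. In *chmru848* retinas *gfap* and *mmp9* gave r = 0.13 (exact permutation p = 0.80, adjusted 0.973) and rho = −0.11 (exact permutation p = 0.84, adjusted 0.996; n = 7). Without the 2 retinas farthest from the *gfap* median r was −0.72. The same limit applies to that value, for which no p-value was computed.

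**Figure D3:**
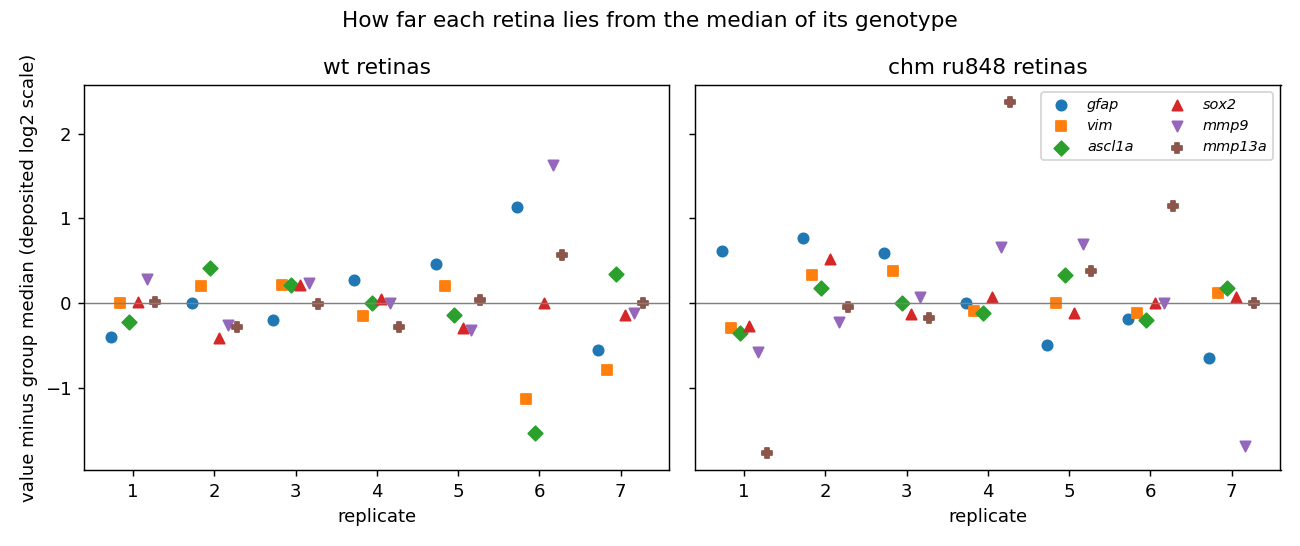
Distance of each retina from the median of its own genotype on the deposited log2 scale, for the 6 genes (symbols) and replicates 1 to 7. Among wt retinas (left) replicate 6 has *mmp9* at 1.64 and *ascl1a* at −1.53 from the median, and among *chmru848* retinas (right) *mmp13a* reaches from −1.77 in replicate 1 to 2.37 in replicate 4.

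The genes whose deviations from the group means were most like those of each member were looked for among 18877 other tested genes with a symbol. For *gfap* these were ATRN (r = 0.89 over 14 retinas) and *tsnare1* (r = 0.88), and for *mmp9* MYO19 (r = 0.87) and NR4A3 (r = 0.86). For *mmp13a* they were RNF150 (r = 0.94) and *cacna1da* (r = 0.93), and for *sox2* zgc:113333 (r = 0.89) and *dact3a* (r = 0.87). For *ascl1a* they were the gene with the identifier ENSDARG00000097082 (r = 0.93) and TAF11L11 (r = 0.92), which fell to 0.78 and 0.58 without wt replicate 6, and for *vim* zgc:174890 and ACADSB (r = 0.88 each). These are the highest of many correlations over the same libraries and are given as a description.

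The lists of genes around the 6 are described by counts and medians, beside a median difference of −0.06 over all tested genes. Counts of calls are to be read beside the 19.9% of all tested genes called higher and the 23.7% called lower. They cannot be set against each other, because they were not chosen alike. Of the tested genes, 11 of 14 in the Jak-Stat list were found by identifier in gene lists that the study made on these retinas. So were 8 of 12 in the proteolysis list and 8 of 9 in the cytokine list. All of these were called higher, so that their direction is not independent evidence. None of the tested regulators of reprogramming or proliferation genes was in those lists.

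All 14 Jak-Stat genes were called higher, with a median difference of 2.72 on the log2 scale (range 1.22 to 5.97). All 14 were also called higher without wt replicate 6 (median 2.86). The largest was *socs3a*, a feedback inhibitor of Stat3 signalling, which rose from 194.5 ± 68.9 to 14870 ± 5470 normalized counts (difference 5.97, SE 0.24, adjusted p = 1.01e-11, limma). *stat3* itself, which Müller glia need for the injury response, rose from 109.5 ± 40.9 to 833 ± 379 (difference 2.48, SE 0.28, adjusted p = 2.42e-06), without overlap. The cytokine genes *il11b* and *il11a* were at 0 in 6 of 7 wt retinas each. They passed the filter for testing only through the *chmru848* retinas. A call as lower was thus not possible for them, and they add nothing to the count of 14. In *chmru848* retinas *il11b* had 115 to 239 normalized counts and *il11a*, the smallest difference of the list, had 2.67 to 48.2. The 3 genes not found by identifier in the study's lists were *clcf1*, *il11a* and *il11b*. The paper's text names *il11a* and *il11b* among the cytokine genes upregulated in these retinas, so their direction is not independent evidence either.

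Of the 18 regulators of reprogramming, 10 could be matched and tested, with 2 called higher, 3 lower and 5 not called (median −0.23). The 5 include *ascl1a* and *sox2*. The counts lie near the shares of all tested genes, 19.9% called higher and 23.7% lower, so they set the list apart in neither direction. Single genes are given as a description. *hbegfa*, which encodes a growth factor that triggers Müller glia reprogramming in zebrafish, rose from 67.2 ± 55.7 to 629 ± 151 normalized counts (difference 2.83, SE 0.27, adjusted p = 3.43e-07, limma) and *yap1*, the effector of Hippo signalling, rose from 869 ± 143 to 1336 ± 230.2 (difference 0.59, adjusted p = 0.00575). The Notch target *her4.1* fell from 253 ± 122 to 89.6 ± 53.4 (difference −1.16, SE 0.31, adjusted p = 0.00529). Without wt replicate 6, 5 were called lower, *ascl1a* and *atoh7* being the further ones. The RNA-binding factor *lin28a* could not be assigned, since 2 identifiers carry the symbol LIN28A, and their values were looked at after those of the list. ENSDARG00000016999 rose from 12.15 ± 12.97 to 323 ± 206 normalized counts without overlap (difference 3.01, SE 0.36, adjusted p = 3.71e-06) and ENSDARG00000004328 had 2.66 ± 1.07 against 13.99 ± 9.55 (difference 0.54, SE 0.21, adjusted p = 0.0499).

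None of the 4 proliferation genes was called in limma (*pcna*, *mki67*, *ccnd1* and *mcm5*, median difference 0.05, range −0.18 to 0.09). Without wt replicate 6, the lowest wt retina for all 4, the median was −0.23 and still none was called. The 95% interval of *mki67*, which encodes the Ki-67 antigen of dividing cells, was −0.57 to 0.72, and that of *pcna*, a clamp of DNA replication, was −0.77 to 0.95. One *chmru848* retina reached 16600 normalized counts of *pcna* against a highest wt value of 6531. At 5 dpf the retinal margin still adds dividing cells, and dividing Müller glia cannot be told apart from these in whole retinas.

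Of the 14 genes for extracellular proteolysis and matrix, 12 were tested and 11 were called higher, with a median of 1.83 (range −0.09 to 5.58) that includes *mmp9* and *mmp13a*. Of the 4 genes outside the study's lists, *mmp9*, *mmp13a* and *mmp13b* were called higher and *mmp2* was not called. *timp2b*, which encodes an inhibitor of metalloproteinases, had the next largest difference after *mmp9*, from 40.4 ± 11.9 to 1289 ± 660.2 normalized counts (SE of the log2 difference 0.27, adjusted p = 4.87e-09, limma). The gelatinase gene *mmp2* had 162 ± 56.4 and 189 ± 165.5 normalized counts (difference −0.09, 95% interval −0.86 to 0.68, adjusted p = 0.861). Among the injury cytokine and NF-κB genes all 9 that were tested were higher (median 2.09, range 0.95 to 5.77), with the largest difference in the chemokine gene *cxcl18b*, but only *tnfb* was outside the study's lists. *il1b* had 325 normalized counts in wt replicate 6 and 6.17 to 325 over all wt retinas. Of the 9 tested genes of this list, 2 were highest among wt retinas in replicate 6 (22.2%, against 22.3% of all tested genes). *tnfa* did not enter the test, as it was at 0 in 6 of 7 wt and 4 of 7 *chmru848* retinas.

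**Figure D4:**
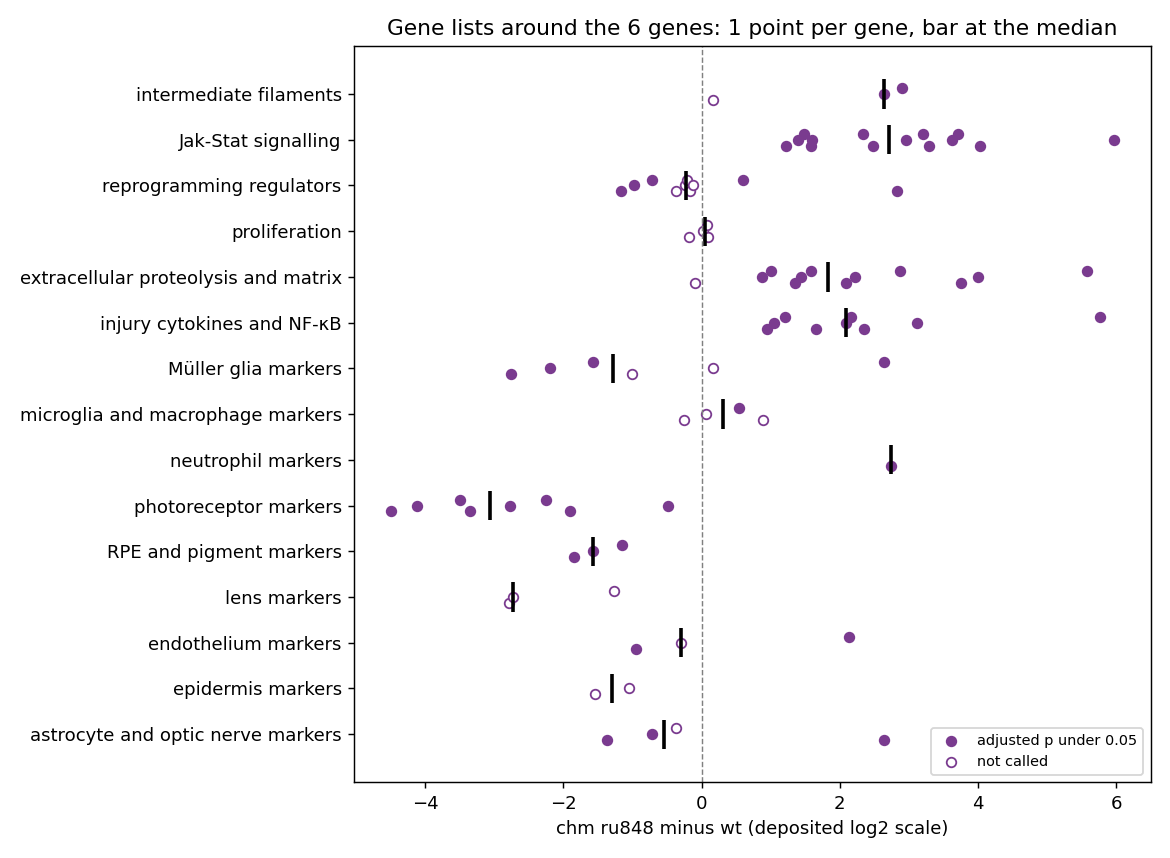
Difference between genotypes on the deposited log2 scale for each matched gene of the lists (filled, adjusted p under 0.05 over all genes; open, not called), with a bar at each list's median. Jak-Stat, protease and cytokine genes, most of them from the study's own lists, lie above 0 apart from *mmp2* at −0.09, photoreceptor and pigment markers below 0, and *gfap* at 2.64 stands apart from the other Müller glia markers.

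The 6 genes were set beside a list of Müller glia markers that itself holds *gfap* and *vim*. Of 12 markers 6 could be matched, with 1 called higher, *gfap*, 3 called lower and 2 not called (median −1.28). Without wt replicate 6, the lowest wt retina for the 5 markers other than *gfap*, 4 were called lower (median −1.50). *rlbp1a*, which encodes the retinaldehyde-binding protein of Müller glia, fell from 7835 ± 2109 to 1177 ± 515 normalized counts (difference −2.75, SE 0.28, adjusted p = 4.97e-07, limma), and the carbonic anhydrase gene *cahz* fell from 5223 ± 1761 to 1111 ± 426 (difference −2.19, SE 0.27, adjusted p = 6e-06). In both every *chmru848* retina lay below every wt retina. *apoea* had 44.8 ± 26.6 in wt and 15.1 ± 24.3 in *chmru848* retinas (adjusted p = 0.0535, and 0.00639 without wt replicate 6). The remaining gene that was called lower, *rlbp1b*, was also on the RPE list. For glutamine synthetase, the enzyme with which Müller glia clear glutamate, 2 identifiers carry the symbol GLUL, and neither was called. ENSDARG00000099776 had 33690 ± 8678 in wt and 22480 ± 11760 in *chmru848* retinas (adjusted p = 0.073), and ENSDARG00000100003 had 11870 ± 3355 and 16360 ± 6301 (adjusted p = 0.187). The share of Müller glia in these retinas was not measured.

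Markers of other cell types moved between the genotypes as well. All 8 tested photoreceptor markers were lower in *chmru848* retinas (median −3.06, range −4.50 to −0.48). All 3 RPE and pigment markers were lower (median −1.57), with summed levels of 991 to 13260 against 5549 to 17950. Of the 4 tested microglia and macrophage markers 1 was higher, *ptprc* (5.66 ± 3.72 to 18.8 ± 14.3 normalized counts, adjusted p = 0.0417), and *lcp1*, *csf1ra* and *apoeb* were not called. Their summed level, nearly all of it *apoeb*, was 14680 to 69810 in *chmru848* and 8674 to 39430 in wt retinas, and *csf1ra* was at 0 in 2 *chmru848* and 1 wt retina and *lcp1* in 1 *chmru848* retina. Which cells held *apoeb* was not measured, so the sum does not measure microglia or macrophages. These cells also make *mmp9*, and their part in its rise was not tested. The water channel gene *aqp4*, from the list of astrocyte and optic nerve markers, fell from 306 ± 24.8 to 98.8 ± 29.2 (difference −1.36, SE 0.17, adjusted p = 5.65e-06, limma), opposite to *gfap*. It was not on the Müller glia list, and which cells of the retina held it was not measured. Of the 3 endothelium markers *sele*, which encodes an adhesion molecule of inflamed vessels, was higher, *kdrl* lower and *cdh5* not called. Only *sele* was in a gene list that the study made on these retinas, so its direction is not independent evidence. The 3 lens and 2 epidermis markers, which come from tissue next to the retina, were not called in limma (1 lens marker was lower without wt replicate 6), and their summed levels varied widely within a genotype, for lens from 0.838 to 61910 normalized counts in wt and from 6.79 to 14170 in *chmru848* retinas.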

How the data were processed

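Bulk RNAseq was performed on 7 *chmru848* and 7 wt retina samples, grouped and numbered by their labels. Per the labels and the paper, the authors made SMART-Seq v4 libraries, trimmed reads with Trim Galore 0.6.7, aligned them with STAR 2.7.10a to GRCz11, counted genes with RSEM 1.3.3 and normalised with DESeq2 1.38.3. The deposited log2 values are these counts after a variance-stabilizing transformation. Its settings and the filter on genes are not given in the sources used here.

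Normalized counts were obtained by inverting the transformation, for which the table's minimum suffices. For 249 genes their means matched the base means listed by the study to a relative difference of 1.6e-14. Low normalized counts come in steps, and 1 step was taken as 1 read to estimate depth. Only 51.6% to 64.3% of low values per retina were near whole steps (within 5% of a step), so count tests were not run. The floor of 3 reads covers counting error only.

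Differences were tested with limma 3.58.1 (R 4.3.3; mean-variance trend, two-sided, Benjamini-Hochberg) on genes that exceeded the table's minimum in 7 or more retinas, and for single genes with the exact permutation test over 3432 arrangements. The script was tested on simulated data. The labels do not say that samples are separate fish, so p-values measure the spread between samples. Symbols came from the study's gene lists and a table of Ensembl genes (18974 identifiers of the table had one), and names in capitals follow it. A symbol shared by several identifiers was not assigned. No sequence is shown. Members and lists were chosen with earlier results of these data known. The named genes were the 6 members, the lists, and the 2 genes most like each member. Alternatives were other filters, variance models, scalings, a covariate, a replicate block and each retina left out. One gene of the proteolysis list is counted with its list and not reported here by itself.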

Additional observations from a re-analysis of the deposited data

Results flagged for a closer look

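Dixon's test for a stray value was applied to the 6 genes in both genotypes, 12 groups of 7 retinas in all, of which chance flags about 1 in 20. It picked out 3 values, all from wt replicate 6. Its *ascl1a* was the lowest of the wt retinas, with a gap to the next retina of 0.669 of the whole range, its *mmp9* was the highest with a gap of 0.693, and its *mmp13a* was the highest with a gap of 0.62, each beyond the 95% critical value. The 3 values come from 1 library and are not independent. With 19.4 M (mega) estimated reads and 450 genes at the lowest value, this retina lay within the range of the other wt retinas. The cause was not tested.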

How the results depend on the processing

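The calls of *gfap*, *mmp9* and *mmp13a* held in all alternatives in which they could be computed (25, 25 and 24), with adjusted p of at most 3.65e-05, 1.77e-07 and 0.00198. *mmp13a* was left out by the filter on the mean. *vim* and *sox2* were not called in any of 25 alternatives and kept their direction. With 1 retina left out the difference was 2.53 to 2.81 for *gfap*, 0.01 to 0.23 for *vim*, −0.48 to −0.15 for *ascl1a*, −0.21 to −0.07 for *sox2*, 5.44 to 5.84 for *mmp9* and 1.74 to 2.43 for *mmp13a*. Without wt replicate 6, *ascl1a* passed as lower (−0.48, adjusted p = 0.0338), so that the number of genes called lower went from 0 to 1. The cause was not tested. On the log2 scale of normalized counts with 1 added, which compresses low values less, the largest differences were 3.50 for *gfap*, 7.05 for *mmp9* and 4.78 for *mmp13a*. Over all genes, 3132 to 4521 were called higher and 3371 to 5401 lower. Replicate numbers 1 to 7 occur in both groups, but the labels name no pairing and same-numbered retinas did not deviate together (r from −0.12 to 0.10, and none correlated best with its own number). With the numbers as a replicate block, the differences stayed as they were, 3 of the 6 genes were called higher and 0 lower (adjusted p of 2.72e-05 for *gfap* and 0.358 for *ascl1a*), and 4036 genes were called higher and 4791 lower over all genes. Depth limits *mmp13a* in wt, where most retinas held at most 1 read.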
